A study of Rattus norvegicus with 20 samples.

Results

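The comparison set the libraries of cultured rat microglia exposed to an agonist of Toll-like receptors (TLRs) against those exposed to phosphate-buffered saline (PBS) or morphine. Libraries were pooled by their labelled treatment, so that 12 agonist libraries stood against 8 control libraries, which together were all 20 libraries of the series. The agonist libraries were 4 with LPS at 1 ng/mL, a bacterial glycolipid that activates TLR4, 4 with PAM3CSK4 at 1 ng/mL, a lipopeptide that activates the TLR1/TLR2 pair, and 4 with zymosan at 100 ug/mL, yeast cell walls that activate TLR2 and dectin-1. The control libraries were 4 with morphine at 1 uM, an opioid receptor agonist, and 4 with PBS, the vehicle. Every library came from brain cells of 21-day-old Sprague-Dawley males that were purified with an antibody to the myeloid surface protein CD11b. The cells spent 5 days in serum-free culture before treatment, so all groups lacked the brain environment. How long they were treated, and whether the 4 libraries of a treatment were separate cultures or animals, the labels do not say. The p-values then rest on the spread of these samples alone, and that spread may be technical. The question was which genes the 3 agonists shared against both controls, in particular genes that moved by less than 2-fold and that comparisons of a single agonist with PBS do not reach.

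TLRs recognise conserved microbial molecules and signal through adaptor proteins, above all MyD88, to kinases of the IRAK family and the ubiquitin ligase TRAF6. These activate the IkB kinase complex, which frees NF-kB for the nucleus, and the MAP kinases, which act on AP-1 transcription factors; TLR4 can also engage the adaptor TRIF and induce type I interferon. In microglia, the resident macrophages of the brain, such stimulation is known to induce cytokines, chemokines and inhibitors of the pathway itself, and to change metabolism and surface receptors.

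NF-kB and AP-1 recognise short DNA sequences, and promoter windows of genes that rose with the agonists are shown because they hold these letters close to the start of transcription. Both strands of RefSeq promoters of the rat assembly GRCr8, each with 250 bases before and 50 after a gene's start, were searched for a form of the NF-kB (kappa B) motif, spelled GGGA, any base, TT, any base and CC, and for TGACTCA, the AP-1 motif; matches of one form cannot overlap those of the other. Capitals mark the match, and each window is written 5′ to 3′ on the gene's strand. The windows shown are those of Batf (chr6:111084467-111084524, plus strand), Bcl3 (chr1:88613559-88613618, minus strand), Cxcl1 (chr14:17479371-17479430, minus strand), Nfkbia (chr6:78597073-78597128, minus strand) and, for AP-1, Il1a (chr3:136990018-136990054, minus strand).
Batf: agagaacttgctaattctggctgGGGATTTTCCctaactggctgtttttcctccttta
Bcl3: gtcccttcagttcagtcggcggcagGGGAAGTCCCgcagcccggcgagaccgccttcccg
Cxcl1: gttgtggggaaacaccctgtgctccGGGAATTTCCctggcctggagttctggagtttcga
Nfkbia: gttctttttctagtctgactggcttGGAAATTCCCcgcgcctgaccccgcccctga
Il1a: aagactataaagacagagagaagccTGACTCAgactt
Of 33469 promoters in the table, 1.11% held the kappa B form and 4.63% the AP-1 form, and of 6881 tested genes with a promoter 1.34% and 3.34% did. Among genes called higher with the agonists, 19 of 655 (2.90%) held the kappa B form and 39 (5.95%) the AP-1 form. Among genes called lower, the counts were 22 of 2185 (1.01%) and 62 (2.84%). Of the moderate genes treated below that single comparisons missed, 216 rises and 283 falls had a promoter. The kappa B form was in 4 of these rises (1.85%) and 2 of the falls (0.707%), and the AP-1 form in 8 (3.70%) and 10 (3.53%). A match describes letters and not binding, and both motifs were chosen with results of these data known.

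Libraries fell into a pair of sets that the treatments did not explain. After group means were removed, the first principal component held 63.2% of the remaining variance and parted 7 libraries (LPS 1 and 2, PAM3CSK4 1, zymosan 1, morphine 1 and 2, and PBS 1) from the other 13. The gene of 18S ribosomal RNA, Rn18s, was listed at 0 in 6 of these 7 libraries and at 2658 to 5656 FPKM in the 13. Median FPKM over the tested genes was also lower in the set of 7, at 5.64 to 6.85 in its 4 agonist and 7.04 to 8.16 in its 3 control libraries, than in the larger set, at 8.12 to 9.39 in its 8 agonist and 10.4 to 10.9 in its 5 control libraries. Within each set the agonist medians lay below the control medians. FPKM is relative to the library's total, and the median log2 difference over all tested genes was −0.20. Rescaling each library by the median of its gene ratios moved that median to −0.0012. Falls of that size are therefore no larger than the shift of the typical gene, and rescaled values are given beside them. Counts of reads and depth are not known from FPKM. The library sets were drawn from these same values, so fits that use them remove residual spread by construction.

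Levels below are medians, with the lowest and highest library in brackets. Markers of the labelled cell type were present. The 28 homeostatic microglia genes in the table summed to 2203 to 3669 FPKM in agonist libraries and 4083 to 5680 FPKM in control libraries, led by Tyrobp, the signalling adaptor of TREM2. P2ry12, a purinergic receptor that marks microglia in the intact brain, was low in these cultures at 0.240 FPKM (0 to 1.08) with the agonists and 3.67 FPKM (2.99 to 5.84) in controls. Marker lists of other cell types were in part at 0 in all 20 libraries. This held for 3 of 7 astrocyte genes (Aqp4, Gfap and Sox9), 5 of 8 neuron genes (Nefl, Nefm, Rbfox3, Stmn2 and Syt1) and 3 of 8 vessel genes (Cldn5, Kdr and Rgs5). It also held for 4 of 8 lymphocyte genes (Cd3e, Cd3g and Ms4a1 among them), for Mobp alone of 9 oligodendrocyte lineage genes, and for Cd163 alone of 8 border macrophage and monocyte genes. The other listed genes were detected in at least 1 library. Of these Cnp was at 12 FPKM (5.77 to 16.1) with the agonists and 23.8 FPKM (10.2 to 28.5) in controls, Flt1, a vessel gene, at 15.2 FPKM (4.64 to 19.3) with the agonists and 8.07 FPKM (3.77 to 13.4) in controls, Cd4 at 13.5 FPKM (3.76 to 31.5) with the agonists and 23.8 FPKM (4.69 to 39.9) in controls and Lyve1, a border macrophage gene, at 1.60 FPKM (0.557 to 2.44) with the agonists and 8.23 FPKM (3.63 to 11.5) in controls. The summed astrocyte list was at 0.186 to 2.97 FPKM with the agonists and 0.846 to 4.52 FPKM in controls, and the oligodendrocyte list at 9.41 to 27.6 FPKM with the agonists and 15.7 to 44.0 FPKM in controls. The vessel list was at 5.65 to 21.2 FPKM with the agonists and 6.92 to 20.1 FPKM in controls, and the lymphocyte list at 4.20 to 31.7 FPKM with the agonists and 7.92 to 42.5 FPKM in controls. Groups were separate for the neuron list, led by Tubb3 (tubulin), at 9.51 to 25.5 FPKM with the agonists and 1.11 to 6.59 FPKM in controls. They were also separate for the border macrophage and monocyte list, led by the adhesion receptor Cd44, at 360 to 721 FPKM with the agonists and 121 to 266 FPKM in controls. Cd44 alone was at 463 FPKM (285 to 562) with the agonists and 142 FPKM (80.1 to 203) in controls. Pf4, a platelet and macrophage chemokine, was at 94.8 FPKM (45.7 to 193) with the agonists and 17.0 FPKM (13.7 to 50.1) in controls. The part of other cells in the results was not tested. In bulk RNA, fewer cells of a type and less RNA per cell cannot be told apart.

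Of 8858 tested genes, which had at least 1 FPKM in at least 4 of the 20 libraries, 3702 (41.8%) passed an adjusted p under 0.05 between the agonist and the control libraries. Higher with the agonists were 875 (9.88%) and lower 2827 (31.9%). Most of these changes were moderate, here an absolute log2 difference under 1 (less than 2-fold): 2714 genes, 575 higher and 2139 lower, or 73.3% of those called, against 988 of 2-fold or more (300 higher and 688 lower). After median-ratio rescaling 1736 genes (19.6%) were higher and 1863 (21%) lower, so the share of calls that were higher was 48.2%, against 23.6% on deposited FPKM. All 875 rises were still called as rises after rescaling, as were 1863 of the 2827 falls as falls, a split that follows from the upward shift. In the 7 libraries of the smaller set alone 1420 genes were called. The plot of differences over all tested genes shows this shift.

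**Figure D1:**
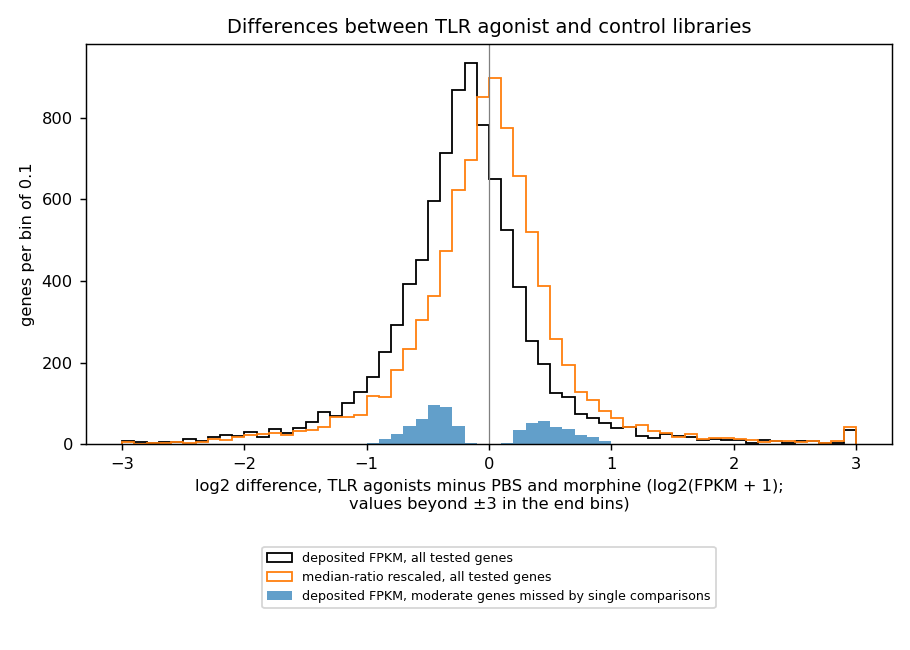
Number of tested genes (y axis) by log2 difference, TLR agonists minus PBS and morphine, in bins of 0.1 on log2(FPKM + 1) (x axis), for deposited FPKM, for rescaled values and for the 657 moderate genes missed by single comparisons. The deposited values centre at −0.20 and the rescaled values near 0, and the missed genes form a group on each side of 0.

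Nos2, the inducible nitric oxide synthase, was at 343 FPKM (89.7 to 631) with the agonists and 0.827 FPKM (0.127 to 1.66) in controls, a log2 difference of 7.36 (SE 0.33, adjusted p = 3.00e-12). Csf3, encoding granulocyte colony-stimulating factor, had 250.4 FPKM (171 to 336) with the agonists and 0.740 FPKM (0 to 1.86) in controls, a log2 difference of 7.34 (SE 0.20, adjusted p = 1.33e-15). The 10 largest rises with separate groups, between 6.02 and 7.36 on the log2 scale, were Nos2, Csf3, Lcn2 (siderophore-binding lipocalin), the chemokines Cxcl1 and Cxcl3, Csf2, the collagenase Mmp13, Cd69, the cytokine Il1a and the clotting initiator F3 (tissue factor). On the other side stood Cx3cr1, the microglial fractalkine receptor, at 3.29 FPKM (0 to 7.95) with the agonists and 51.9 FPKM (26.3 to 96.1) in controls, a log2 difference of −3.86 (SE 0.32, adjusted p = 1.51e-08). The 10 largest falls ran to −2.88 and joined receptors (Cx3cr1, Gpr34, Gpr183) with mitotic and nucleotide genes (Cdk1, Plk1, Spc25, Dut), Tf (transferrin), Alox5ap (the leukotriene synthesis protein FLAP) and Pld4 (a lysosomal exonuclease). In all 20 of these genes the agonist and control libraries did not overlap, which the naming rule required.

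Below 2-fold, 657 genes (7.42% of those tested) were called in the pooled comparison but in none of the comparisons of LPS, PAM3CSK4 or zymosan with PBS, of which 274 rose and 383 fell. They made up 24.2% of the 2714 moderate genes. The rises ran between 0.14 and 1.00 on the log2 scale with a median of 0.48, and the falls between −0.96 and −0.17 with a median of −0.45. The median standard error was 0.163 for the pooled difference and 0.252 for a single agonist against PBS, and the median 95% interval of a pooled difference extended 0.341 to each side. The single comparisons called 2866 genes (32.4%) for LPS, 2496 (28.2%) for PAM3CSK4 and 1670 (18.9%) for zymosan. They share the PBS libraries with the pooled comparison, and a gene under their threshold is not shown to be unchanged.

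Rescaling raises the difference of nearly every gene by a like amount, so a rise keeps its call by construction and a small fall loses it. All 274 rises were called as rises after rescaling (3.09% of tested genes), and 49 of the 383 falls were called as falls (0.553%). Together these were 323 genes (3.65%). The remaining 334 falls lost the call, and 13 genes changed sign without a call. With a term for the library sets all 657 were called, and in the 13 libraries of the larger set alone 587 were. The sets were drawn from the residuals of these same values, so smaller p-values there follow in part by construction. Across all libraries none of the 657 had groups without overlap. Within the larger set, 276 of them (42.0%; 138 higher and 138 lower) had 8 agonist and 5 control libraries without overlap, beside 34.9% of all tested genes; these libraries also entered the rule, so the share is a description. The count depended on the control libraries used. With PBS alone as the reference of the pooled agonists 153 moderate genes were called that no single comparison reached, and with morphine alone 345. The smaller set holds 2 of 4 morphine libraries and 1 of 4 PBS libraries.

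Egln2 and Vhl, which both act in the destruction of hypoxia-inducible factor (HIF), had the smallest p of the named missed rises. Egln2, a prolyl hydroxylase that marks HIF for destruction, was at 31.6 FPKM (14.0 to 39.3) with the agonists and 18.5 FPKM (10.2 to 20.8) in controls, a log2 difference of 0.80 (SE 0.17, adjusted p = 0.000879). Of the 12 agonist libraries 11 lay above every control library, and PAM3CSK4 1, at 14.0 FPKM, lay among them. In the larger set the agonist libraries ran at 29.7 to 39.3 FPKM and the control libraries at 18.1 to 20.8 FPKM. Against PBS alone its differences were 0.69 with LPS (adjusted p = 0.0553), 0.64 with PAM3CSK4 (adjusted p = 0.0842) and 0.61 with zymosan (adjusted p = 0.13). Morphine minus PBS was −0.32 for Egln2 and was not called, so the pooled controls lay below PBS. Vhl, the subunit that recognises hydroxylated HIF for ubiquitination, was at 22.5 FPKM (13 to 29.0) with the agonists and 12.9 FPKM (4.81 to 16.1) in controls, a log2 difference of 0.91 (SE 0.20, adjusted p = 0.000909). In the larger set its agonist libraries ran at 20.8 to 29.0 FPKM and its controls at 12.6 to 16.1 FPKM. Hif1a itself rose by more than 2-fold and was not among the missed genes, at 86.2 FPKM (43.7 to 109) with the agonists and 41.0 FPKM (23.7 to 50.7) in controls, a log2 difference of 1.09 (SE 0.16, adjusted p = 1.65e-05).

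Map2k3, Ell, Bcor, Clk3 and Trim35 encode regulators of signalling, transcription, splicing and ubiquitination. Map2k3, the kinase that phosphorylates p38, was at 43.6 FPKM (22.8 to 57.6) with the agonists and 24.4 FPKM (9.64 to 31.7) in controls, a log2 difference of 0.87 (SE 0.22, adjusted p = 0.0031). Its larger-set libraries did not overlap, at 41.9 to 57.6 FPKM with the agonists and 23.5 to 31.7 FPKM in controls. Ell, a factor that speeds elongation by RNA polymerase II, was at 10.1 FPKM (2.77 to 13.1) with the agonists and 4.02 FPKM (2.14 to 5.36) in controls, a log2 difference of 0.95 (SE 0.23, adjusted p = 0.00246). Bcor, the corepressor of BCL6, was at 6.58 FPKM (3.89 to 9.53) with the agonists and 3.64 FPKM (2.88 to 5.13) in controls, a log2 difference of 0.60 (SE 0.15, adjusted p = 0.00287). Clk3, a kinase of splicing factors, rose by 0.52 on the log2 scale, with medians of 35.0 FPKM with the agonists and 24.7 FPKM in controls. Trim35, a ubiquitin ligase, rose by 0.75 (77.6 FPKM with the agonists and 40.5 FPKM in controls).

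Myadm, Cd82, Ndel1 and Ist1 encode membrane or transport proteins. Myadm, a membrane protein of myeloid cells, was at 206 FPKM (87.8 to 246) with the agonists and 102 FPKM (64.2 to 140.3) in controls, a log2 difference of 0.87 (SE 0.20, adjusted p = 0.00131). The groups overlapped for Myadm, Cd82, Ndel1 and Ist1. Cd82, a tetraspanin, had medians of 146 FPKM with the agonists and 86.2 FPKM in controls, a log2 difference of 0.62 (SE 0.15, adjusted p = 0.00202). Ndel1, a regulator of the motor dynein, rose by 0.59 (136 FPKM with the agonists and 81.7 FPKM in controls), and Ist1, an ESCRT-III protein of membrane scission, by 0.35 (36.1 FPKM with the agonists and 28.4 FPKM in controls), the smallest of the 15. Blcap rose by 0.61, Ankrd33b by 0.74 and Tcta by 0.48. Morphine lay below PBS in each of the 15 named rises, by log2 differences between −0.37 (Map2k3) and −0.16 (Eno1), none of them called. Their pooled rises therefore exceed the rises over PBS alone. In 13 of the 15 named rises the larger-set libraries did not overlap, and Ist1 and Tcta were the exceptions. Over all tested genes this share was 34.9%. The 15 were chosen for small p on these same libraries, so their count is a description. None of the 15 lost its call when any 1 library was left out, 4 lost it with PBS alone as the reference (Clk3, Ist1, Map2k3 and Ndel1), and 13 lost it among the 4 agonist and 3 control libraries of the smaller set, where Vhl and Myadm kept it.

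**Figure D2:**
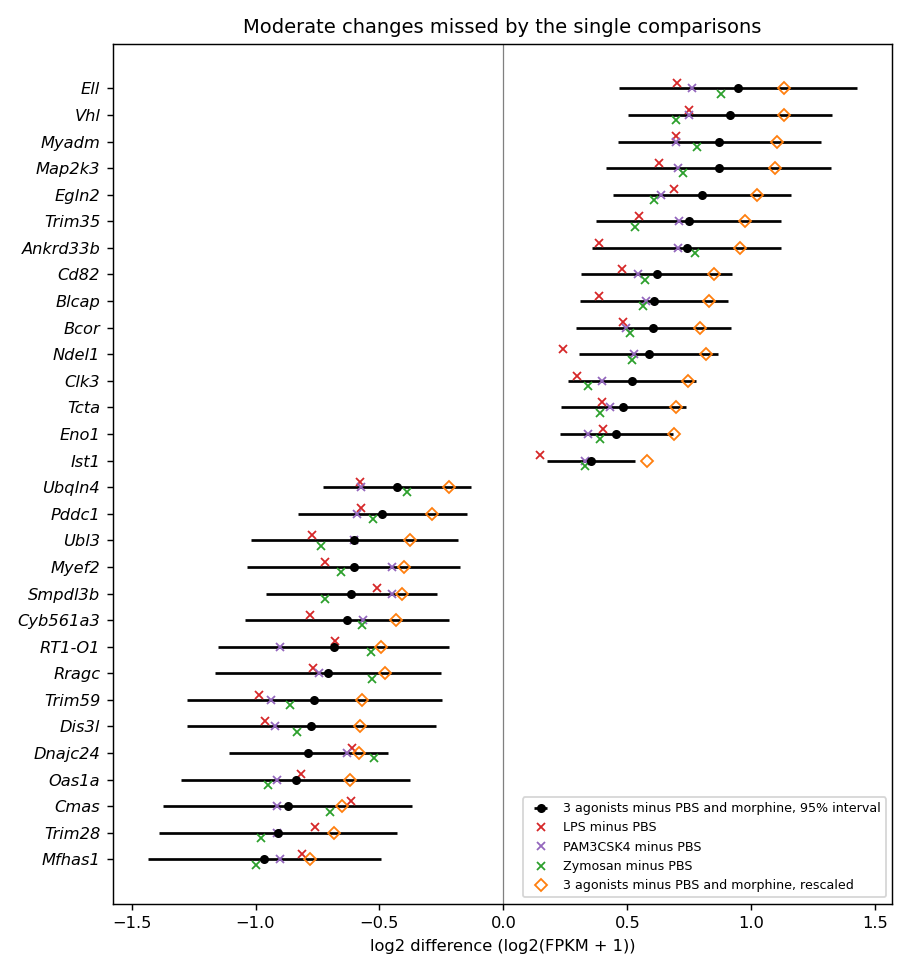
Log2 difference on log2(FPKM + 1) (x axis) of the 30 named moderate genes missed by single comparisons, with 95% intervals for the pooled comparison, crosses for each agonist minus PBS and diamonds for rescaled values. The pooled intervals exclude 0 on deposited FPKM, which follows from the choice of called genes. Rescaled values lie to the right of the deposited ones in all 30 genes, since rescaling raises nearly every difference.

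The 15 named falls were chosen among the 49 that were also called after rescaling. Dnajc24, a J-domain protein needed for the diphthamide modification of elongation factor 2, was at 5.08 FPKM (2.99 to 6.79) with the agonists and 8.29 FPKM (5.97 to 15.7) in controls, a log2 difference of −0.79 (SE 0.15, adjusted p = 0.000373), and −0.58 (adjusted p = 0.0333) after rescaling. Trim28, the corepressor KAP1 that silences retroelements, was at 18.2 FPKM (7.98 to 37.1) with the agonists and 30.2 FPKM (24.7 to 60.1) in controls, a log2 difference of −0.91 (SE 0.23, adjusted p = 0.00327). Oas1a, an interferon-induced oligoadenylate synthetase, was at 8.74 FPKM (4.41 to 18.9) with the agonists and 17.3 FPKM (12 to 23.3) in controls, a log2 difference of −0.84 (SE 0.22, adjusted p = 0.00462), with −0.62 (adjusted p = 0.044) after rescaling. The groups overlapped for Dnajc24, Trim28 and Oas1a. Mfhas1 fell by 0.96, and Cmas, which activates sialic acid for glycan synthesis, by 0.87 (8.82 FPKM with the agonists and 18.0 FPKM in controls).

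Among the other falls, Rragc and Cyb561a3 encode lysosomal proteins. Rragc, a Rag GTPase that recruits mTORC1 to lysosomes, fell by 0.71, with medians of 42.3 FPKM with the agonists and 65.2 FPKM in controls. Cyb561a3, a lysosomal ferric reductase, fell by 0.63 (5.31 FPKM with the agonists and 8.80 FPKM in controls), and Smpdl3b, a membrane-bound sphingomyelinase relative, by 0.61 (4.77 FPKM with the agonists and 7.64 FPKM in controls). Dis3l, a nuclease of the cytoplasmic exosome, fell by 0.77 (5.18 FPKM with the agonists and 10.4 FPKM in controls). Trim59, RT1-O1, Ubl3, Ubqln4, Pddc1 and Myef2 fell by 0.76, 0.69, 0.60, 0.43, 0.49 and 0.60 on the log2 scale; RT1-O1 belongs to a family of near-identical class I genes whose reads may be split, so its value is uncertain. The call was lost without PBS 2, PBS 3 or morphine 3 for Myef2 (−0.55, −0.52 and −0.52), without PBS 2 for RT1-O1 (−0.58), and without morphine 3 for Pddc1 (−0.43) and Ubqln4 (−0.37). With morphine alone as the reference 9 of the 15 falls lost the call, and with PBS alone 5 did. In the smaller set 13 did, and Dnajc24 and Trim28 kept it. The larger-set libraries did not overlap in 6 of the 15 named falls, beside 34.9% of all tested genes.

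**Figure D3:**
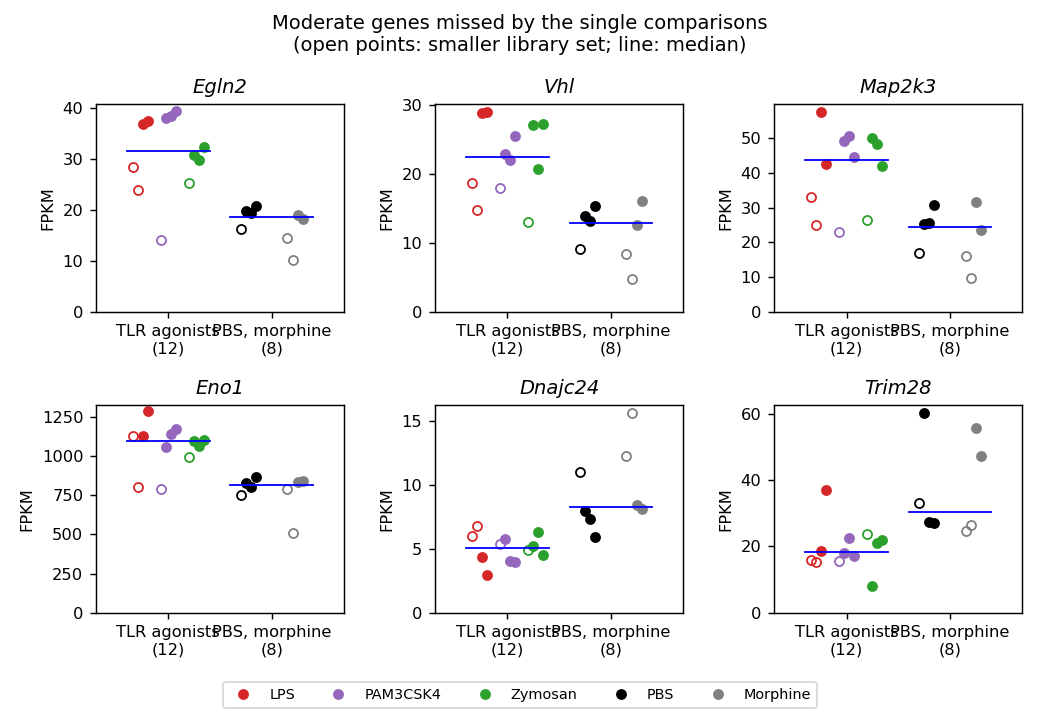
FPKM (y axis) of 6 named moderate genes in each of the 12 TLR agonist libraries, left, and the 8 PBS and morphine libraries, right, with open points for the smaller library set and a line at the median. In Egln2, Vhl, Map2k3 and Eno1 the filled agonist points lie above the filled control points, while most open points of both groups sit lower; Dnajc24 and Trim28 are lower with the agonists, and overlap.

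Some moderate changes separated every agonist library from every control library. Groups did not overlap at all in 1062 genes (12%), of which 264 (2.98%) were higher and 798 (9.01%) lower with the agonists, and 408 of these (74 higher and 334 lower) were moderate. Aldoa, the glycolytic aldolase, was at 1762 FPKM (1584 to 2098) with the agonists and 1174 FPKM (956 to 1296) in controls, a log2 difference of 0.61 (SE 0.07, adjusted p = 9.61e-07). Prdx5, a peroxiredoxin that reduces peroxides, was at 1278 FPKM (1056 to 1594) with the agonists and 714 FPKM (480.3 to 857) in controls, a log2 difference of 0.94 (SE 0.13, adjusted p = 5.67e-06). Among falls, Cd68, a lysosomal glycoprotein of macrophages, was at 186 FPKM (135 to 268) with the agonists and 347 FPKM (313 to 368) in controls, a log2 difference of −0.86 (SE 0.07, adjusted p = 1.36e-08) and −0.63 (adjusted p = 0.000826) after rescaling. Apoe, the lipid carrier of apolipoprotein particles, was at 16.6 FPKM (13.5 to 23.6) with the agonists and 34.9 FPKM (26.2 to 46.0) in controls, a log2 difference of −0.98 (SE 0.12, adjusted p = 3.40e-06). Gpx1, the main cytosolic glutathione peroxidase, was at 294 FPKM (242 to 363) with the agonists and 507 FPKM (427 to 655) in controls, a log2 difference of −0.78 (SE 0.08, adjusted p = 4.60e-07). Eif1, a factor of start codon choice in translation, rose by 0.57 (690.5 FPKM with the agonists and 458 FPKM in controls). In the plot of these genes the lowest agonist library and the highest control library, or the reverse, leave a gap.

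**Figure D4:**
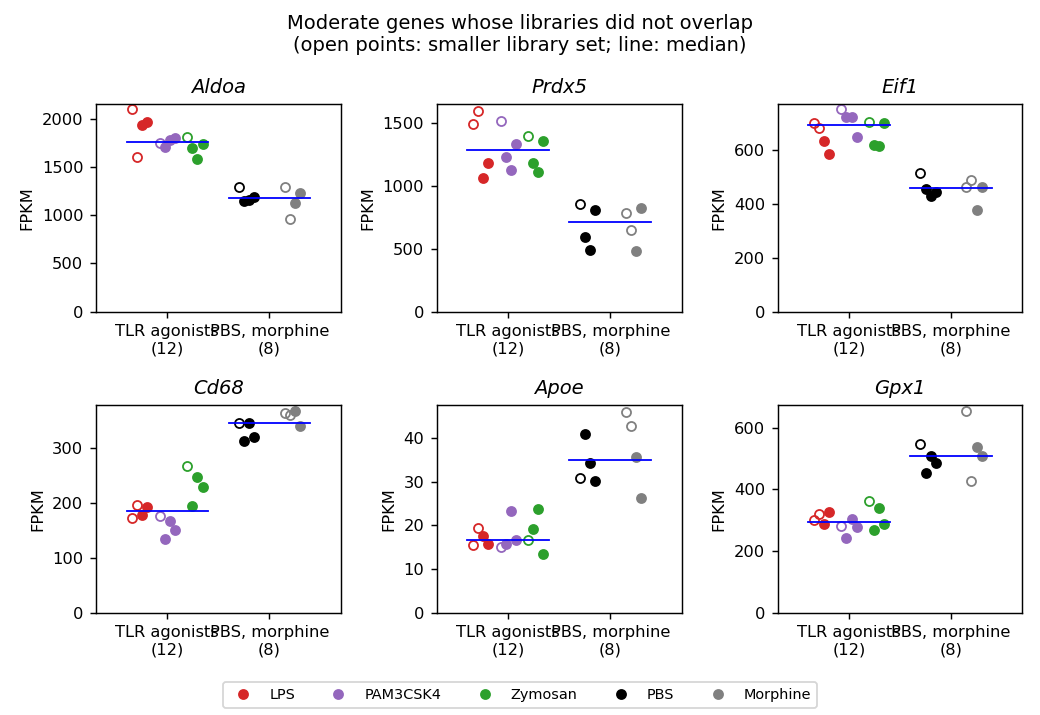
FPKM (y axis) of 6 moderate genes in each of the 12 TLR agonist libraries, left, and the 8 PBS and morphine libraries, right, with open points for the smaller library set and a line at the median. All agonist points lie above all control points for Aldoa, Prdx5 and Eif1, and below them for Cd68, Apoe and Gpx1.

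A pooled difference can come from 1 agonist, so each agonist was also required to differ from the mean of PBS and morphine. This held for 1624 genes (18.3%), 402 higher (4.54%) and 1222 lower (13.8%), of which 861 were of 2-fold or more and 763 moderate. The count depended on the library sets: it was 3024 with the library-set term, 2883 with library weights, 2830 in the larger set and 101 in the smaller set. It held for 13 of the 657 missed genes, 5 of them higher, which were Egln2, Vhl, Myadm, Bcor and Rgd1564171; Dnajc24 and Mfhas1 were among the 8 lower. The agonists differed from each other by an F test in 7 genes (0.079%), against 464 at an unadjusted p under 0.05, and in 6 of those called; with the library-set term it was 51 genes and with library weights 128. None of the 657 passed that test, and 3 did at an unadjusted p under 0.05. Morphine against PBS gave no call in limma (0%) and 104 genes at an unadjusted p under 0.05. Chance alone gives such a p in a share of about 0.05 of the 8858 tested genes. The unadjusted counts are therefore not read as differences. After rescaling the F test called 8 genes.

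Among the 5 called genes with the smallest F test p, 4 had their highest mean with LPS, and Dnase2 was lowest with LPS. Lcn2 averaged 815 ± 185 FPKM with LPS, 538 ± 76.2 FPKM with PAM3CSK4, 279 ± 36.7 FPKM with zymosan, 1.96 ± 0.833 FPKM with morphine and 3.19 ± 1.01 FPKM with PBS (SD, n = 4 each). Ccl5, a chemokine for T cells and monocytes, averaged 32.4 ± 8.21 FPKM with LPS, 5.08 ± 2.67 FPKM with PAM3CSK4, 5.08 ± 1.89 FPKM with zymosan, 0.991 ± 1.10 FPKM with morphine and 1.10 ± 0.983 FPKM with PBS (SD, n = 4 each). Crip2, a LIM domain protein, averaged 23.6 ± 3.05 FPKM with LPS, 11.2 ± 1.53 FPKM with PAM3CSK4, 7.89 ± 1.32 FPKM with zymosan, 5.46 ± 1.58 FPKM with morphine and 7.22 ± 2.50 FPKM with PBS (SD, n = 4 each), and did not pass the requirement that each agonist differ from controls. The adaptor Stap2 averaged 4.04 ± 1.23 FPKM with LPS, 2.12 ± 0.263 FPKM with PAM3CSK4, 1.14 ± 0.536 FPKM with zymosan, 0.144 ± 0.166 FPKM with morphine and 0.0752 ± 0.0921 FPKM with PBS (SD, n = 4 each). Dnase2, the lysosomal DNase, averaged 41.1 ± 3.81 FPKM with LPS, 51.6 ± 3.90 FPKM with PAM3CSK4, 68.2 ± 5.96 FPKM with zymosan, 92.4 ± 11.1 FPKM with morphine and 102 ± 4.65 FPKM with PBS (SD, n = 4 each). Pairs of agonists were not tested. The adjusted F test p was 0.0167 for Lcn2, Crip2 and Ccl5 and 0.0400 for Stap2 and Dnase2. The number of such genes ran between 0 and 7 as single libraries were left out, and was 0 without LPS 3, without zymosan 3, or with a pseudocount of 0.1 FPKM; it was under 5 without any other library but PAM3CSK4 1, zymosan 2 or 4 and morphine 2.

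The gene groups below are read against 9.88% of tested genes called higher and 31.9% called lower. After rescaling these shares were 19.6% and 21%. Members called in the pooled comparison and missed by the single ones are mostly named where a group has 5 or fewer of them; those outside the naming rule were chosen after their values were seen. Of the marker lists of other cells, both tested neuron genes rose (Tubb3 and Snap25), and of 6 tested border macrophage and monocyte genes 3 rose (Cd44, Pf4 and S100a8) and 3 fell (Lyve1, Mrc1 and Ly6c). The counts were 0 higher and 0 lower of 1 astrocyte gene, 0 and 2 of 3 oligodendrocyte genes, 1 and 2 of 3 vessel genes, and 0 and 1 of 2 lymphocyte genes.

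Of the receptors of the agonists, none passed the test over all libraries on deposited FPKM. Tlr2, Tlr4 and Tlr1 passed with the library-set term and in the larger set. Those sets were drawn from the residuals of these same values, so smaller p-values follow in part by construction. In the smaller set alone Tlr2 and Tlr4 were not called. Of 15 tested TLRs and co-receptors 1 rose and 6 fell, and after rescaling 5 rose and 5 fell. Tlr2, the receptor of PAM3CSK4 and zymosan, was at 177 FPKM (61.8 to 214) with the agonists and 143 FPKM (63.7 to 170.0) in controls, with a log2 difference of 0.28 (SE 0.25, adjusted p = 0.41); the difference was 0.51 (adjusted p = 0.0196) after rescaling, 0.23 (adjusted p = 0.00870) with the library-set term and 0.29 (adjusted p = 0.00417) in the larger set. Tlr4, the receptor of LPS, was at 7.21 FPKM (1.18 to 10.7) with the agonists and 13.6 FPKM (3.57 to 17.6) in controls. Its log2 difference was −0.75 (SE 0.33, adjusted p = 0.0753). Tlr4 passed the test with the library-set term (−0.81), with library weights (−0.82), with the replicate block (−0.75) and in the larger set (−0.86). It also passed with zymosan left out (−0.96), and without PBS 1 (−0.89), morphine 2 (−0.92) or PAM3CSK4 3 (−0.85). After rescaling alone it was not called, and after rescaling together with the library-set term it was (−0.60). Tlr1, the partner of TLR2 for PAM3CSK4, was at 3.48 FPKM (0.0856 to 5.30) with the agonists and 1.80 FPKM (0.0882 to 2.15) in controls, with a log2 difference of 0.66 (SE 0.30, adjusted p = 0.0923); it was 0.79 (adjusted p = 0.0256) after rescaling, 0.61 (adjusted p = 0.00123) with the set term and 0.73 (adjusted p = 0.000138) in the larger set. Clec7a (dectin-1) was at 2.70 FPKM (1.45 to 4.73) with the agonists and 3.30 FPKM (2.19 to 4.93) in controls, with a log2 difference of −0.19 (SE 0.15, adjusted p = 0.324), and did not pass with the set term (−0.20, adjusted p = 0.134). Tlr3, a sensor of double-stranded RNA, was at 1.19 FPKM (0.0595 to 2.61) with the agonists and 7.78 FPKM (4.97 to 9.15) in controls, a log2 difference of −1.94 (SE 0.19, adjusted p = 9.60e-08). Ly86 (MD-1), the partner of the TLR4-like receptor CD180, was at 46.6 FPKM (33.1 to 71.4) with the agonists and 132 FPKM (97.1 to 214) in controls, a log2 difference of −1.47 (SE 0.16, adjusted p = 3.34e-07). Cnpy3, a chaperone that folds TLRs in the endoplasmic reticulum, was a moderate fall without overlap, at 26.0 FPKM (20.7 to 30.1) with the agonists and 42.3 FPKM (30.5 to 58.9) in controls, a log2 difference of −0.70 (SE 0.09, adjusted p = 2.39e-06). The libraries of both groups were apart for Tlr3, Ly86 and Cnpy3; the groups overlapped for Tlr2, Tlr4, Tlr1 and Clec7a. The 1 rise was the scavenger receptor Cd36 (3.38 FPKM with the agonists and 1.60 FPKM in controls, log2 difference 0.70), and Cd14, the LPS co-receptor, fell by 0.44 and lost the call after rescaling (−0.20, adjusted p = 0.279).

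Among adaptors and proximal kinases, regulators of the IRAK step rose, and Myd88 passed the test under some settings only. Of 22 tested, 5 rose and 1 fell, and 8 rose and 0 fell after rescaling. In the larger set 8 rose and 6 fell, and with the library-set term 8 rose and 7 fell. Irak2, a kinase that sustains signalling, was at 55.1 FPKM (26.5 to 77.0) with the agonists and 13.9 FPKM (7.05 to 17.6) in controls, a log2 difference of 1.94 (SE 0.19, adjusted p = 1.19e-07). Irak3 (IRAK-M), its inhibitory relative, was at 11.6 FPKM (6.16 to 16.0) with the agonists and 2.62 FPKM (1.48 to 4.34) in controls, a log2 difference of 1.58 (SE 0.19, adjusted p = 1.66e-06). No agonist library lay within the control range for Irak2 and Irak3; the groups overlapped for Peli1 and Tank. Peli1, a ubiquitin ligase of IRAK proteins, had medians of 55.1 FPKM with the agonists and 29.3 FPKM in controls, a log2 difference of 0.85 (SE 0.18, adjusted p = 0.000762), and Tank, a scaffold of TBK1, 48.0 FPKM with the agonists and 24.7 FPKM in controls, a log2 difference of 0.81 (SE 0.19, adjusted p = 0.00214). Traf6, the ligase downstream of IRAKs, was reached by the pooled comparison alone, with 21.6 FPKM with the agonists and 13.3 FPKM in controls, a log2 difference of 0.53 (SE 0.19, adjusted p = 0.0311), as was a fall of Ube2v1, partner of its conjugating enzyme (41.7 FPKM with the agonists and 47.1 FPKM in controls, log2 difference −0.24), which was −0.01 (adjusted p = 0.938) after rescaling. Myd88 was at 33.8 FPKM (16.2 to 42.1) with the agonists and 30.9 FPKM (13.6 to 34.4) in controls, a log2 difference of 0.23 (SE 0.18, adjusted p = 0.321), and passed after rescaling at 0.46 (adjusted p = 0.00143), with the library-set term at 0.20 (adjusted p = 0.0445) and in the larger set at 0.19 (adjusted p = 0.0326). Irak4, the first kinase of the cascade, was at 6.36 FPKM (2.61 to 7.61) with the agonists and 6.35 FPKM (2.95 to 8.47) in controls, a log2 difference of 0.0049 (SE 0.20, adjusted p = 0.988).

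Among NF-kB genes 11 of 19 feedback inhibitors and 3 of 11 subunits and kinases rose. Of the 11 tested subunits and kinases 3 rose and 3 fell (3 and 1 after rescaling). Map3k8 (TPL2), a kinase released when p105 is degraded, was at 32.2 FPKM (14.4 to 36.3) with the agonists and 10.1 FPKM (4.20 to 13.5) in controls, a log2 difference of 1.55 (SE 0.23, adjusted p = 1.79e-05). Nfkb2, encoding p100, was missed by single comparisons, at 49.3 FPKM (17.1 to 57.4) with the agonists and 26.3 FPKM (11.1 to 28.9) in controls, a log2 difference of 0.89 (SE 0.27, adjusted p = 0.0127); it lost the call with PBS alone as the reference (0.72, adjusted p = 0.114) and in the smaller set (0.62, adjusted p = 0.0590). Rela, the p65 subunit, was at 36.7 FPKM (27.9 to 44.2) with the agonists and 31.3 FPKM (26.4 to 39.5) in controls, a log2 difference of 0.22 (SE 0.09, adjusted p = 0.0486), a call that was lost, at 0.19 to 0.24, when any 1 of 15 libraries was left out (all but LPS 2, PAM3CSK4 1, zymosan 1, morphine 3 and PBS 2). Nfkb1 was at 14.8 FPKM (8.08 to 54.1) with the agonists and 11.6 FPKM (6.66 to 27.2) in controls, a log2 difference of 0.31 (SE 0.27, adjusted p = 0.385). In the smaller set alone Nfkb1 was called as a rise (0.96, adjusted p = 0.0241). Of the 19 feedback inhibitors 11 rose and 2 fell (13 and 1 after rescaling). Nfkbia, which encodes IkB alpha and whose promoter window is shown above, was at 192 FPKM (172 to 229) with the agonists and 72.2 FPKM (59.1 to 80.9) in controls, a log2 difference of 1.46 (SE 0.08, adjusted p = 4.15e-11). Zc3h12a (regnase-1), an RNase that degrades cytokine mRNA, was at 39.1 FPKM (26.7 to 50.2) with the agonists and 6.92 FPKM (4.00 to 8.59) in controls, a log2 difference of 2.35 (SE 0.16, adjusted p = 8.79e-10). Zfp36 (tristetraprolin), which also destabilises such mRNA, rose by 1.84, and Bcl3, a nuclear IkB protein, by 1.62. Agonist and control ranges did not meet for Map3k8, Nfkbia, Zc3h12a, Zfp36 and Bcl3; the groups overlapped for Nfkb2, Rela and Nfkb1. Otud7b, a deubiquitinase, and Rnf11l1 were missed by the single comparisons and rose by 0.37 and 0.52.

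In the MAP kinase cascades 3 of the 4 rises were phosphatases, but the phosphatases Dusp14 and Dusp22 fell, as did Spred1 and Spred2. Of 29 members 4 rose and 7 fell (7 and 5 after rescaling). Dusp1, which inactivates p38 and JNK, was at 107 FPKM (78.3 to 127) with the agonists and 31.7 FPKM (18.4 to 42.1) in controls, a log2 difference of 1.71 (SE 0.13, adjusted p = 2.67e-09). Dusp2 was at 19.4 FPKM (14.3 to 27.2) with the agonists and 7.20 FPKM (4.99 to 13) in controls, a log2 difference of 1.20 (SE 0.18, adjusted p = 2.86e-05). Map3k1 fell by 0.91 (2.81 FPKM with the agonists and 6.19 FPKM in controls) and Mapk9, encoding JNK2, by 0.66 (9.68 FPKM with the agonists and 16.7 FPKM in controls). Missed by single comparisons were rises of Map2k3, above, and of Dusp16, a JNK phosphatase (7.82 FPKM with the agonists and 3.56 FPKM in controls, log2 difference 0.91), and a fall of Mapk14, encoding p38 alpha (13.2 FPKM with the agonists and 23.3 FPKM in controls, log2 difference −0.73, and −0.52, adjusted p = 0.0463, after rescaling). Of 24 AP-1, ATF and C/EBP factors 11 rose and 2 fell (12 and 1 after rescaling). Cebpd was at 46.4 FPKM (39.4 to 62.2) with the agonists and 18.3 FPKM (15.3 to 21.6) in controls, a log2 difference of 1.30 (SE 0.08, adjusted p = 4.90e-10). Junb was at 131 FPKM (96.4 to 169) with the agonists and 49.8 FPKM (35.7 to 58.3) in controls, a log2 difference of 1.41 (SE 0.11, adjusted p = 7.33e-09). Batf was at 34.0 FPKM (19.8 to 57.3) with the agonists and 8.27 FPKM (6.11 to 10.6) in controls, a log2 difference of 1.87 (SE 0.13, adjusted p = 7.79e-10). Separation of all 12 from all 8 libraries was seen for Dusp1, Dusp2, Cebpd, Junb and Batf. Missed members of the factor list were Mafk, Atf6 and Cebpg, which rose by 0.84, 0.69 and 0.25, and Cebpa, a factor of myeloid identity, which fell by 0.69 and was at −0.47 (adjusted p = 0.108) after rescaling.

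Cytokines and chemokines were mostly higher. Of 37 tested 24 rose and 5 fell, with a median log2 difference of 1.25 (1.48 after rescaling), and none was among the missed genes. Il1b was at 11000.1 FPKM (7301 to 13101) with the agonists and 212 FPKM (149 to 271) in controls, a log2 difference of 5.59 (SE 0.14, adjusted p = 4.00e-16). Il6 and Tnf were named after their values were seen. Il6 had medians of 555 FPKM with the agonists and 21.4 FPKM in controls, with a log2 difference of 4.72. Tnf had medians of 117 FPKM with the agonists and 51.8 FPKM in controls, with a log2 difference of 1.21. Il16, Cxcl16, Tnfsf13b (BAFF), Cxcl10 and Ccl6 fell by 1.01, 0.70, 0.80, 0.74 and 1.18; after rescaling Cxcl10 (−0.50, adjusted p = 0.13) and Ccl6 (−0.96, adjusted p = 0.0959) lost the call. Of 33 cytokine receptors 9 rose and 7 fell (13 and 5 after rescaling). Tnfrsf14, the receptor HVEM, was at 7.08 FPKM (4.16 to 13.2) with the agonists and 0.163 FPKM (0.0923 to 0.419) in controls, a log2 difference of 2.73 (SE 0.12, adjusted p = 4.37e-12). Ccrl2, which presents chemerin, was at 76.1 FPKM (60.8 to 114) with the agonists and 23.7 FPKM (18.6 to 36.2) in controls, a log2 difference of 1.62 (SE 0.11, adjusted p = 1.06e-09). Csf1r, the receptor microglia need to survive, was at 114 FPKM (60.4 to 157) with the agonists and 499 FPKM (357 to 596) in controls, a log2 difference of −2.10 (SE 0.13, adjusted p = 2.28e-10). The ranges were separate for Tnfrsf14, Ccrl2, Csf1r and Il1b. The 1 missed receptor was Tnfrsf26 (29.4 FPKM with the agonists and 18.1 FPKM in controls, log2 difference 0.51).

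Inhibitors of cytokine receptor signalling, the SOCS proteins, made up the 4 rises of the JAK-STAT list over all libraries on deposited FPKM. Of 24 SOCS and JAK-STAT regulators 4 rose and 2 fell (11 and 2 after rescaling). In the larger set 8 rose and 8 fell, and the counts were the same with the library-set term. Cish was at 14.1 FPKM (7.18 to 18.5) with the agonists and 1.10 FPKM (0.670 to 2.48) in controls, a log2 difference of 2.63 (SE 0.18, adjusted p = 1.06e-09). Socs3 was at 59.6 FPKM (9.57 to 70.3) with the agonists and 2.89 FPKM (0.991 to 7.88) in controls, a log2 difference of 3.51 (SE 0.38, adjusted p = 4.93e-07). Socs1, which blocks JAK kinases, was at 3.91 FPKM (1.04 to 6.62) with the agonists and 1.79 FPKM (1.36 to 3.73) in controls, a log2 difference of 0.72 (SE 0.16, adjusted p = 0.00154). Against PBS its differences were 0.16 with LPS (adjusted p = 0.657), 0.77 with PAM3CSK4 (adjusted p = 0.0302) and 1.12 with zymosan (adjusted p = 0.00384), and it did not pass the requirement that each agonist differ from controls. The libraries of both groups were apart for Cish and Socs3; the groups overlapped for Socs1.

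Interferon response genes were lower more often than higher. Of 46 tested 5 rose and 20 fell (6 and 18 after rescaling), with a median of −0.43 (−0.21 after rescaling). Oasl was at 368 FPKM (231 to 467) with the agonists and 122 FPKM (65.5 to 193) in controls, a log2 difference of 1.44 (SE 0.17, adjusted p = 1.49e-06). Usp18, a protease that removes ISG15, was at 133 FPKM (81.0 to 169) with the agonists and 50.7 FPKM (45.8 to 73.0) in controls, a log2 difference of 1.16 (SE 0.15, adjusted p = 2.88e-06). Against these stood Ifitm3, a membrane protein that blocks virus entry, listed at 0.422 FPKM (0 to 1.33) with the agonists and 2.51 FPKM (1.54 to 4.41) in controls, a log2 difference of −1.34 (SE 0.17, adjusted p = 2.45e-06). Zbp1, a nucleic acid sensor, was at 0.724 FPKM (0.119 to 2.21) with the agonists and 4.70 FPKM (2.26 to 7.87) in controls, a log2 difference of −1.62 (SE 0.21, adjusted p = 5.04e-06). No agonist library lay within the control range for Oasl, Usp18, Ifitm3 and Zbp1. Ifnb1, encoding interferon beta, was among the rises at medians of 2.83 FPKM with the agonists and 0.530 FPKM in controls (log2 difference 1.34). Rsad2 (viperin) rose by 0.63 in the pooled comparison alone, and Oas1a, above, fell there.

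On deposited FPKM the glycolysis genes that passed the test all rose, most by less than 2-fold. Of 24 tested genes 12 rose and 0 fell (16 and 0 after rescaling), 8 of the rises were moderate, and the list median was 0.46 (0.68 after rescaling). Slc2a1, the glucose transporter GLUT1, was at 169 FPKM (97.6 to 217) with the agonists and 38.8 FPKM (17.0 to 43.2) in controls, a log2 difference of 2.23 (SE 0.20, adjusted p = 4.98e-08). Slc16a3, the lactate exporter MCT4, was at 69.3 FPKM (24.6 to 136) with the agonists and 19.8 FPKM (15.2 to 30.7) in controls, a log2 difference of 1.61 (SE 0.21, adjusted p = 4.45e-06). Agonist and control ranges did not meet for Slc2a1; the groups overlapped for Slc16a3. Aldoa was described above. Eno1, Pgk1 and Pgam1, enzymes of the lower pathway, were reached by pooling alone. Eno1 was at 1099 FPKM (788 to 1290.3) with the agonists and 816 FPKM (509 to 869) in controls, a log2 difference of 0.45 (SE 0.11, adjusted p = 0.00224). Pgk1 had medians of 442 FPKM with the agonists and 353 FPKM in controls, a log2 difference of 0.36 (SE 0.09, adjusted p = 0.00378). Pgam1 had 363 FPKM with the agonists and 302 FPKM in controls, a log2 difference of 0.35 (SE 0.12, adjusted p = 0.0275). In the 13 libraries of the larger set 16 of the 24 rose and 3 fell.

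Redox genes moved in both directions. Of 34 pentose phosphate and NRF2 antioxidant genes 9 rose and 11 fell (12 and 6 after rescaling). Sod2, the mitochondrial superoxide dismutase, was at 1319 FPKM (1061 to 1409) with the agonists and 267 FPKM (217 to 304) in controls, a log2 difference of 2.28 (SE 0.08, adjusted p = 1.82e-13). Slc7a11, the cystine importer, was at 20.5 FPKM (13.5 to 32.9) with the agonists and 4.80 FPKM (2.31 to 6.54) in controls, a log2 difference of 2.00 (SE 0.17, adjusted p = 2.19e-08). Enzymes of glutathione synthesis were reached by pooling alone, Gclc (11 FPKM with the agonists and 8.64 FPKM in controls, log2 difference 0.30) and Gss (33.9 FPKM with the agonists and 24.7 FPKM in controls, log2 difference 0.47), beside Srxn1, which restores peroxiredoxins (30.6 FPKM with the agonists and 17.9 FPKM in controls, log2 difference 0.81). Prdx2 and Pgls were missed falls of −0.27 and −0.35, and were at −0.04 (adjusted p = 0.885) and −0.13 (adjusted p = 0.567) after rescaling. Of 26 NADPH oxidase, nitric oxide and prostaglandin genes 12 rose and 8 fell (14 and 7 after rescaling). Rac2, a GTPase of the oxidase, was at 1218 FPKM (922 to 1316) with the agonists and 587 FPKM (513 to 618) in controls, a log2 difference of 1.00 (SE 0.06, adjusted p = 2.28e-10). Slc7a2, an arginine transporter, was at 63.6 FPKM (20.1 to 106) with the agonists and 0.782 FPKM (0.125 to 2.2) in controls, a log2 difference of 4.92 (SE 0.33, adjusted p = 7.79e-10). Alox5ap was at 8.67 FPKM (3.87 to 16.4) with the agonists and 87.9 FPKM (62.6 to 117) in controls, a log2 difference of −3.24 (SE 0.19, adjusted p = 1.95e-10). Separation of all 12 from all 8 libraries was seen for Sod2, Slc7a11, Rac2, Slc7a2 and Alox5ap. Ncf1 (p47phox), the organising subunit of the oxidase, was missed by single comparisons at 135 FPKM with the agonists and 79.3 FPKM in controls, a log2 difference of 0.64 (SE 0.18, adjusted p = 0.00701), as was the arginine transporter Slc7a1 (log2 difference 0.40); Ptges3 fell by 0.25 and was at −0.02 (adjusted p = 0.876) after rescaling.

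Fatty acid oxidation genes that passed the test on deposited FPKM were all lower. Of 22 fatty acid oxidation genes 0 rose and 10 fell, 9 of them moderate; after rescaling 3 rose and 8 fell. Hadh was at 3.39 FPKM (1.77 to 4.88) with the agonists and 12.2 FPKM (6.26 to 13.8) in controls, a log2 difference of −1.49 (SE 0.15, adjusted p = 1.34e-07). Acadm, the medium-chain acyl-CoA dehydrogenase, was at 8.28 FPKM (4.85 to 10.5) with the agonists and 17.5 FPKM (12.5 to 19.1) in controls, a log2 difference of −0.98 (SE 0.12, adjusted p = 1.53e-06). Acaa2, the mitochondrial thiolase, was at 9.48 FPKM (6.87 to 11.3) with the agonists and 15 FPKM (12.8 to 20.4) in controls, a log2 difference of −0.75 (SE 0.12, adjusted p = 4.33e-05). The ranges were separate for Hadh, Acadm and Acaa2. The missed Etfb, an electron carrier, fell by 0.36 and was at −0.13 (adjusted p = 0.524) after rescaling. Of 22 cholesterol efflux and LXR target genes 1 rose and 9 fell (3 and 7 after rescaling). The rise was Abca1, the cholesterol exporter, with medians of 57.7 FPKM with the agonists and 18.5 FPKM in controls and a log2 difference of 1.5. Among the falls Trem2, a lipid receptor, was at 25.1 FPKM (14.1 to 40.7) with the agonists and 102 FPKM (76.3 to 158) in controls, a log2 difference of −2.11 (SE 0.16, adjusted p = 2.89e-09). Lpl, lipoprotein lipase, was at 61.9 FPKM (17.2 to 189) with the agonists and 541 FPKM (154 to 794) in controls, a log2 difference of −2.87 (SE 0.39, adjusted p = 6.96e-06). The libraries of both groups were apart for Trem2; the groups overlapped for Lpl. Of 27 cholesterol synthesis genes 1 rose (Mvd, log2 difference 0.32) and 7 fell, a share below that of all tested genes, but 4 rose and 4 fell after rescaling. Dhcr7, the last enzyme of the Kandutsch-Russell route, was at 4.98 FPKM (2.85 to 8.17) with the agonists and 13.5 FPKM (7.14 to 17.5) in controls, a log2 difference of −1.08 (SE 0.17, adjusted p = 4.68e-05).

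Genes of the unfolded protein response that passed the test on deposited FPKM all rose. Of 29 genes 11 rose, 8 of them moderately, and 0 fell (19 and 0 after rescaling), although in the larger set 13 rose and 1 fell; the list median was 0.25 (0.48 after rescaling). Hspa5 (BiP), the main chaperone of the endoplasmic reticulum, was at 595 FPKM (305 to 1183) with the agonists and 299.9 FPKM (178 to 442) in controls, a log2 difference of 1.01 (SE 0.21, adjusted p = 0.000592). Ppp1r15a (GADD34), which restarts translation, was at 127 FPKM (77.1 to 171) with the agonists and 54.7 FPKM (28.2 to 78.1) in controls, a log2 difference of 1.20 (SE 0.17, adjusted p = 1.11e-05). Dnajb9 was at 57.4 FPKM (39.2 to 77.7) with the agonists and 30.7 FPKM (19.7 to 42.7) in controls, a log2 difference of 0.83 (SE 0.14, adjusted p = 7.98e-05). The groups overlapped for Hspa5, Ppp1r15a and Dnajb9. The stress sensor Atf6, the pseudokinase Trib3 and the secreted Manf were missed by single comparisons, and rose by 0.69, 0.67 and 0.46. Atf6 had medians of 37.1 FPKM with the agonists and 22.4 FPKM in controls, and Manf of 48.6 FPKM with the agonists and 34.9 FPKM in controls.

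Cell death genes moved both ways. Of 33 inflammasome and cell death genes 7 rose and 6 fell (13 and 4 after rescaling). Birc3, a ubiquitin ligase that protects from TNF-induced death, was at 45.7 FPKM (25.8 to 73.3) with the agonists and 6.70 FPKM (2.50 to 8.64) in controls, a log2 difference of 2.69 (SE 0.19, adjusted p = 1.93e-09). Cflar, an inhibitor of caspase-8, was at 135 FPKM (59.8 to 162) with the agonists and 27.1 FPKM (13.9 to 29.9) in controls, a log2 difference of 2.30 (SE 0.22, adjusted p = 1.01e-07). Pycard (ASC), the inflammasome adaptor, was at 14.4 FPKM (7.69 to 31.9) with the agonists and 74.1 FPKM (55.9 to 113) in controls, a log2 difference of −2.25 (SE 0.22, adjusted p = 8.98e-08); Casp1 and Gsdmd fell by 0.92 and 1.51, whereas Nlrp3 rose by 1.44. No agonist library lay within the control range for Birc3, Cflar and Pycard. Reached by pooling alone were members of the BCL2 family. The survival proteins Mcl1 (63.0 FPKM with the agonists and 43.3 FPKM in controls, log2 difference 0.45) and Bcl2l1 (142 FPKM with the agonists and 103 FPKM in controls, log2 difference 0.43) and the death agonist Bid (45.4 FPKM with the agonists and 24.6 FPKM in controls, log2 difference 0.77) rose.

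Homeostatic microglia genes fell, 17 of 18 by 2-fold or more. Of 26 homeostatic genes 0 rose and 18 fell (1 and 18 after rescaling), 1 of the falls was moderate, and the list median was −1.47 (−1.30 after rescaling). Ctss, a lysosomal protease, was at 87.6 FPKM (68.7 to 103) with the agonists and 221 FPKM (197 to 238) in controls, a log2 difference of −1.31 (SE 0.07, adjusted p = 2.40e-11). Sparc, a matricellular protein, was at 0.803 FPKM (0.0787 to 1.41) with the agonists and 6.54 FPKM (5.67 to 8.97) in controls, a log2 difference of −2.12 (SE 0.13, adjusted p = 2.64e-10). Of 22 Fc receptor and phagocytosis genes 5 rose and 7 fell (7 and 5 after rescaling). Fcgr2b, the inhibitory Fc receptor, was at 206 FPKM (161 to 368) with the agonists and 70.6 FPKM (51.6 to 95.5) in controls, a log2 difference of 1.61 (SE 0.10, adjusted p = 2.11e-10). Cd47, the ligand that restrains engulfment, was at 242 FPKM (204 to 277) with the agonists and 109 FPKM (92.6 to 123) in controls, a log2 difference of 1.13 (SE 0.08, adjusted p = 7.70e-10). Fcgr2a was at 424 FPKM (323 to 554) with the agonists and 217 FPKM (151 to 239.8) in controls, a log2 difference of 0.99 (SE 0.09, adjusted p = 7.53e-08). Agonist and control ranges did not meet for Ctss, Sparc, Fcgr2b, Cd47 and Fcgr2a. The lipid transporter Abca7 rose in the pooled comparison alone (3.11 FPKM with the agonists and 1.84 FPKM in controls, log2 difference 0.60) and the engulfment adaptor Elmo1 fell there (log2 difference −0.35, and −0.12, adjusted p = 0.294, after rescaling).

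Genes of proliferation fell almost throughout. Of 49 cell cycle and DNA replication genes 45 fell and 1 rose, with the same counts after rescaling and a median of −1.93. Ccnd1, cyclin D1 of the G1 phase, was at 35.9 FPKM (24.5 to 70.3) with the agonists and 227 FPKM (177 to 235) in controls, a log2 difference of −2.43 (SE 0.11, adjusted p = 2.49e-12). Mki67, a marker of cycling cells, was at 1.42 FPKM (0.718 to 3.34) with the agonists and 13.6 FPKM (9.88 to 22.5) in controls, a log2 difference of −2.56 (SE 0.15, adjusted p = 1.34e-10). The 1 rise, Cdkn1a, encodes the inhibitor p21 and was moderate at 125 FPKM (84.8 to 191) with the agonists and 69.6 FPKM (50.7 to 84.3) in controls, a log2 difference of 0.90 (SE 0.12, adjusted p = 4.17e-06). Separation of all 12 from all 8 libraries was seen for Ccnd1, Mki67 and Cdkn1a.

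Actin and transport genes carried several small rises. Of 33 actin and motility genes 7 rose and 6 fell, and 13 rose and 2 fell after rescaling. Marcksl1 was at 16.3 FPKM (11.3 to 22.5) with the agonists and 7.61 FPKM (3.61 to 8.67) in controls, a log2 difference of 1.06 (SE 0.14, adjusted p = 3.44e-06). Marcks, a membrane protein that binds actin, was at 45.3 FPKM (37.3 to 70.1) with the agonists and 21.2 FPKM (17.0 to 31.0) in controls, a log2 difference of 1.08 (SE 0.14, adjusted p = 4.46e-06). The ranges were separate for Marcksl1 and Marcks. The Arp2/3 subunit Arpc2 (log2 difference 0.24), the filament elongator Vasp (log2 difference 0.45) and the GTPase Rhoc (log2 difference 0.29) rose in the pooled comparison alone, and Was fell there by 0.26 and was at −0.04 (adjusted p = 0.827) after rescaling. Of 27 amino acid and metal transporters and metallothioneins 9 rose and 5 fell (14 and 3 after rescaling). Mt2A, a metallothionein, was at 51.7 FPKM (19.5 to 154) with the agonists and 0.875 FPKM (0.376 to 2.71) in controls, a log2 difference of 4.82 (SE 0.28, adjusted p = 1.16e-10). Slc11a1 (NRAMP1), the phagosomal metal transporter, was a moderate rise without overlap, at 261 FPKM (182 to 323) with the agonists and 144 FPKM (88.7 to 174) in controls, a log2 difference of 0.85 (SE 0.12, adjusted p = 1.81e-05). The mitochondrial iron importer Slc25a37 rose (log2 difference 0.73) and the zinc exporter Slc30a1 fell (log2 difference −0.64, and −0.46, adjusted p = 0.0543, after rescaling) in the pooled comparison alone.

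**Figure D5:**
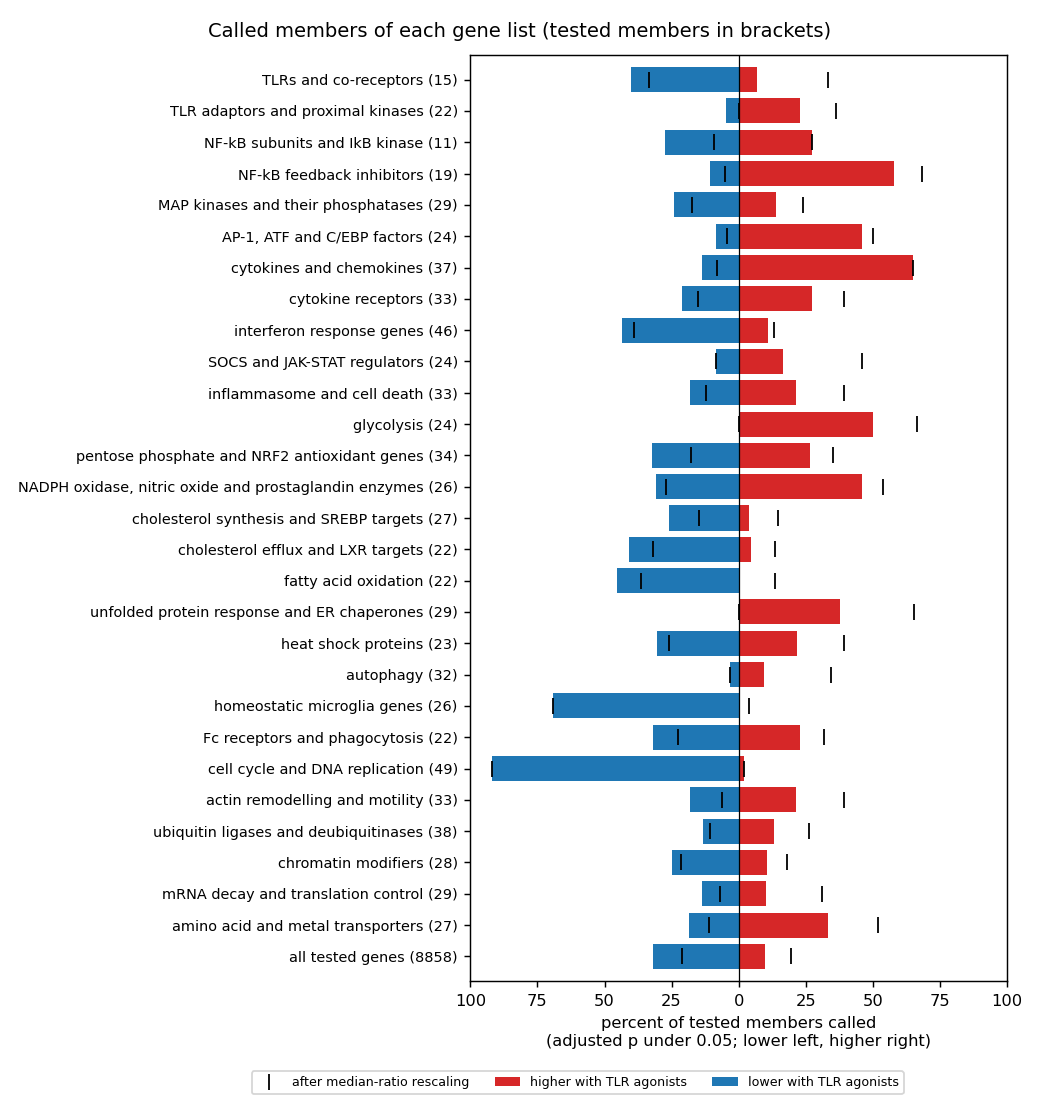
Percent of the tested members of each gene list with at least 10 of them called at an adjusted p under 0.05 (x axis), higher with the TLR agonists to the right and lower to the left, with ticks for the same percentages after median-ratio rescaling. Of the lists shown, cytokines, NF-kB feedback inhibitors and glycolysis reach furthest to the right, cell cycle and homeostatic microglia genes furthest to the left, and the row of all tested genes is at 9.88% and 31.9%.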

How the data were processed

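RNA of 20 libraries was read from 1 deposited table of 17310 gene symbols. The authors deposited FPKM, fragments per kilobase of gene model relative to all mapped fragments, and no counts. Named by the submitters' processing notes, without role or order, are Cufflinks 2.2.1, DESeq2, featureCounts 1.4.6, HISAT2 2.0.5.1 and the build rn6; no annotation is named in the labels. FPKM sums were 306075 to 397357 per library, depth is unknown, and the number of libraries limits the precision. A total of 41 zeros in 21 genes may be failed estimates, since the group's other 3 libraries reached 5 FPKM. Strand use in counting is not stated, so overlapping, antisense and near-identical genes are uncertain.

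From these values, log2(FPKM + 1) was fitted for 8858 genes that reached 1 FPKM in 4 or more libraries, with 5 group means in limma 3.58.1 (R 4.3.3, mean-variance trend). The log2 difference is the mean of the LPS, PAM3CSK4 and zymosan group means minus the mean of the PBS and morphine group means, and it understates the change of low genes. Tests were two-sided, p-values had Benjamini-Hochberg adjustment over all tested genes, and an adjusted p under 0.05 was called. A change with each agonist was called on the largest p of the 3 contrasts with the mean of PBS and morphine, all of 1 sign. The code was tested on simulated data.

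Members and gene lists were chosen with earlier results of these data known. Named genes were the 10 largest rises and falls with separate groups and a higher group mean of at least 5 FPKM; the 15 rises and 15 falls with the smallest p among moderate genes missed by single comparisons that had a higher group mean of at least 5 FPKM and no 0 and were called the same way after rescaling and with a library-set term; up to 4 called members per list; the 5 genes with the smallest F test p; and 7 pathway genes (Tlr2, Tlr4, Myd88, Irak4, Nfkb1, Rela and Nfkbia). Symbols were spelled after RefSeq GRCr8 (14814 matched by symbol, 2084 by synonym, 412 unmatched). Mitochondrially encoded genes were not analysed here. Results of a few single genes are not reported here. Alternatives were another pseudocount, no filter, rescaling, library weights, a replicate block, 2 pooled groups, PBS or morphine alone as reference, library-set fits, zeros as missing, and leaving out each agonist or library. Rescaling together with the library-set term was added after seeing the data, as was the count of genes without overlap in the larger library set.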

Additional observations from a re-analysis of the deposited data

Results flagged for a closer look

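Single control libraries stood apart from the other 7 in 11 of 174 named genes, by a gap to the nearest library that exceeded Dixon's critical value for 8 libraries (0.526 of the range); chance alone flags about 1 in 20 such groups. Morphine 2, a library of the smaller set, was the lowest in 6 of them. It had 509 FPKM for Eno1 (next 751), 54.8 for Msmo1 (next 82.2), 6.26 for Hadh (next 10.4), 151 for Fcgr2a (next 201), 3.61 for Marcksl1 (next 6.90) and 76.5 for Dnase2 (next 94.97). Morphine 4 was the highest for Socs3 at 7.88 FPKM (next 3.92), Socs1 at 3.73 (next 2.37) and Hspa1b at 5.69 (next 2.60). PBS 2 was the highest for Btg2 at 12.9 FPKM (next 10.9) and the lowest for Cd8a at 0.577 (next 1.91). None of these genes lost its call when that library was left out.

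The F test among the 3 agonists flagged Lcn2, Crip2 and Ccl5 (adjusted p = 0.0167 each) and Stap2 and Dnase2 (adjusted p = 0.0400 each), whose group means stand in the report.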

How the results depend on the processing

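Counts are given in the order called genes, moderate missed genes, genes changed with each agonist and genes differing between agonists, which were 3702, 657, 1624 and 7. They stayed within 1.5 times of these with no filter, after rescaling, with zeros as missing and without PAM3CSK4. With 2 pooled groups only the called genes were counted (3783). Moderate missed genes numbered 153 with PBS alone as the reference, 345 with morphine alone, 426 with library weights and 421 in the smaller library set. Genes changed with each agonist numbered 2883 with library weights, 3024 with the library-set term, 2707 with that term after rescaling, 2830 in the larger set and 101 in the smaller set, where 1420 genes were called in all. Genes differing between agonists numbered 0 with a pseudocount of 0.1 FPKM, 128 with weights, 51 with the set term, 42 with that term after rescaling, 1 in the smaller set, 0 without LPS and 3 without zymosan. Leaving out single libraries gave 3332 to 3844 called, 578 to 874 missed (highest without PBS 4), 1339 to 1671 changed with each agonist and 0 to 7 differing.

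The replicate numbers were not taken to pair the samples, since not every pair exceeded 0.1: deviations of libraries numbered 2 correlated between −0.279 and 0.597, above 0.1 in 4 of 10 pairs, while numbers 1, 3 and 4 exceeded 0.1 in all 10. The library sets followed these numbers in part. All libraries numbered 1 were in the smaller set, all numbered 3 or 4 in the larger, and those numbered 2 in both. The main fit had no term for either. With the replicate block 4804 genes were called, 633 were moderate and missed, 2300 changed with each agonist and 70 differed between agonists.

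Among the genes of the naming rule directions turned for 2; of the 657 moderate missed genes 13 changed sign after rescaling, none with a call. Irak4 was at −0.036 with library weights, −0.26 against PBS alone, −0.028 with the set term, −0.030 in the larger set, −0.088 in the smaller set and −0.12 without zymosan, and ran between −0.071 and 0.0996 as single libraries were left out. Nfkb1 was at −0.00955 with weights. Neither was called where its direction turned, and the cause was not tested. In the smaller set Nfkb1 was called as a rise (0.96, adjusted p = 0.0241). Over the named genes 2659 single values under the other alternatives kept their side of the threshold, 103 lost it and 15 gained it; without single libraries the counts were 3432, 35 and 3.

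FPKM hold no depth, so counting error cannot be set beside the spread between libraries. The larger part of the residual spread lies between the library sets, whose origin is not stated.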

Other observations

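Further gene groups moved in both directions, and members outside the naming rule were chosen after their values were seen. The counts are read against 9.88% of tested genes called higher and 31.9% lower, or 19.6% and 21% after rescaling. Of 23 heat shock proteins 5 rose and 7 fell (9 and 6 after rescaling). Hspb1, a small heat shock protein, was at 37.0 FPKM (21.0 to 53.4) with the agonists and 4.80 FPKM (1.52 to 9.27) in controls, a log2 difference of 2.65 (SE 0.21, adjusted p = 7.72e-09). Cryab, another, was at 2.76 FPKM (1.81 to 3.64) with the agonists and 7.10 FPKM (3.90 to 10.7) in controls, a log2 difference of −1.11 (SE 0.14, adjusted p = 3.26e-06). Hspa1a, inducible HSP70, was at 6.04 FPKM (2.98 to 13) with the agonists and 0.318 FPKM (0.180 to 0.749) in controls, a log2 difference of 2.35 (SE 0.15, adjusted p = 3.27e-10). The co-chaperone Dnaja1 rose by 0.28 in the pooled comparison alone, where Hsp90ab1 was at −0.19, and at 0.04 (adjusted p = 0.764) after rescaling. Of 32 autophagy genes 3 rose and 1 fell, and 11 rose and 1 fell after rescaling. Sqstm1 (p62), the selective autophagy receptor, was at 792 FPKM (484 to 1333) with the agonists and 352 FPKM (221 to 553) in controls, a log2 difference of 1.17 (SE 0.17, adjusted p = 1.82e-05). Atg13 and Atg101, both of the ULK1 initiation complex, rose by 0.47 and 0.21 in the pooled comparison alone; the call of Atg101 was lost, at 0.18 to 0.22, without LPS 1, PAM3CSK4 2 or 4, zymosan 1 or 2, morphine 1, 2 or 4, or PBS 1, 3 or 4.

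Regulators of chromatin and mRNA showed a similar mix. Of 28 chromatin modifiers 3 rose (10.7%) and 7 fell (25%), near the shares of all tested genes. After rescaling 5 rose and 6 fell. Dnmt1, the maintenance DNA methyltransferase, was at 2.61 FPKM (1.10 to 6.09) with the agonists and 10.2 FPKM (6.66 to 16.1) in controls, a log2 difference of −1.71 (SE 0.20, adjusted p = 1.01e-06). Kat2a (GCN5), a histone acetyltransferase, fell moderately without overlap at 2.72 FPKM (2.04 to 4.13) with the agonists and 6.18 FPKM (4.58 to 6.99) in controls, a log2 difference of −0.93 (SE 0.11, adjusted p = 2.13e-06). Kdm6b (JMJD3), a demethylase of histone H3, was at 2.27 FPKM (1.47 to 3.70) with the agonists and 0.797 FPKM (0.338 to 1.97) in controls, a log2 difference of 0.81 (SE 0.17, adjusted p = 0.000822), and the demethylases Kdm3a and Kdm5b rose by 0.45 and 0.55 in the pooled comparison alone. Of 29 mRNA decay and translation genes 3 rose and 4 fell (9 and 2 after rescaling). Btg1, which recruits deadenylases, was at 415 FPKM (365 to 509) with the agonists and 143 FPKM (113 to 189) in controls, a log2 difference of 1.55 (SE 0.09, adjusted p = 7.60e-11). Eif4ebp2, a repressor of cap-dependent translation, was at 6.32 FPKM (3.39 to 10.7) with the agonists and 16.6 FPKM (14.3 to 22.3) in controls, a log2 difference of −1.34 (SE 0.16, adjusted p = 1.87e-06). Cnot6l, a deadenylase, and the decapping enzyme Dcp2 fell by 0.65 and 0.36 in the pooled comparison alone, and were at −0.47 (adjusted p = 0.0378) and −0.24 (adjusted p = 0.102) after rescaling. Of 38 ubiquitin ligases and deubiquitinases 5 rose and 5 fell (10 and 4 after rescaling); Rnf128 (GRAIL) was at 10.1 FPKM (5.72 to 13.4) with the agonists and 29.0 FPKM (24.1 to 39.0) in controls, a log2 difference of −1.54 (SE 0.14, adjusted p = 5.96e-08), and Smurf1 rose by 0.37 and Usp25 fell by 0.61 in the pooled comparison alone.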
